A study of Mus musculus with 22 samples.

Results

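The expression of 10 genes that cut, protect or cross-link the extracellular matrix was followed in mouse liver: the tissue inhibitors of metalloproteinases Timp1, Timp2 and Timp3, the matrix metalloproteinases Mmp2, Mmp12, Mmp13 and Mmp14, and the lysyl oxidases Lox, Loxl1 and Loxl2. They were taken by gene symbol from the 45777 genes of the count tables, and all 10 were found in both tables. The 22 livers came from male wild-type C57BL/6J mice of 2 cohorts, and RNA was sequenced from polyA-selected, stranded libraries. In the HFD cohort, the high-fat diet model labelled as MASLD (metabolic dysfunction-associated steatotic liver disease), 4 mice received the diet with DTMB, 4 the diet with vehicle and 3 a normal diet with vehicle. In the MCD cohort, the methionine- and choline-deficient diet model labelled as MASH (the steatohepatitis form), 3 mice received the diet with DTMB, 4 the diet with vehicle and 4 a normal diet with vehicle. DTMB, a compound known here by its code name alone, was dosed orally with 10 mg/kg each day. Neither cohort has a normal-diet group with DTMB, and the labels used here give neither the age of the mice nor the length of feeding or dosing. The cohort is also named as the batch in the labels, so the disease model and the batch cannot be told apart.

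Metalloproteinases are zinc enzymes that degrade collagens, elastin and other matrix proteins, and TIMPs are secreted proteins that block their active site. Lysyl oxidases are copper enzymes that oxidise lysines of collagen and elastin so that the fibres become covalently cross-linked, which makes scar matrix harder to degrade. In liver, activated stellate cells are a known source of TIMPs, Mmp2 and lysyl oxidases, while Mmp12, the macrophage elastase, is made mainly by macrophages. In bulk tissue, fewer cells of a type and less RNA per cell cannot be told apart.

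Mmp12 and Mmp13 lie next to each other on mouse chromosome 9 (GRCm38.p6, RefSeq), with 61064 bases between the end of Mmp13 at 7283333 and the start of Mmp12 at 7344397, both on the plus strand. Mmp13 spans chr9:7272514-7283333 and Mmp12 chr9:7344397-7360461, while Mmp2 spans chr8:92827290-92853421 and Mmp14 chr14:54431598-54442456, all on the plus strand. Timp1 spans chrX:20870166-20874737 and Timp3 chr10:86300412-86349505 on the plus strand, and Timp2 chr11:118301061-118355411 on the minus strand. Loxl2 spans chr14:69608692-69695834 on the plus strand and Loxl1 chr9:58287723-58313212 on the minus strand. The RefSeq promoter table (GRCm38.p6) holds 6 of the 10 genes, and the 250 bases before the transcript start are shown for Mmp13, Mmp12 and Timp1, which had the largest diet estimates. Capitals mark matches to TGANTCA, the letters bound by AP-1, the Fos and Jun dimer known from collagenase promoters, searched on both strands.
Mmp13, chr9:7272264-7272513, plus strand: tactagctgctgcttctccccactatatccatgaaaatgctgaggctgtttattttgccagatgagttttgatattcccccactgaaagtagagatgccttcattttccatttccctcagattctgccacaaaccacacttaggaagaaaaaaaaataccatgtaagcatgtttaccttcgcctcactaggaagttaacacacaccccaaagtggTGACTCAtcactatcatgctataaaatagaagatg
Mmp12, the downstream of its 2 starts, chr9:7347124-7347373, plus strand: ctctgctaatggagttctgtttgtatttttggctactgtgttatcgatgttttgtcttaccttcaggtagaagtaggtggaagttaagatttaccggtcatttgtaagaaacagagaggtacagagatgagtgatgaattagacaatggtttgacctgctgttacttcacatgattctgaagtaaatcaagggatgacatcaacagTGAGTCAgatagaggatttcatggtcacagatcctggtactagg
Timp1, chrX:20869916-20870165, plus strand: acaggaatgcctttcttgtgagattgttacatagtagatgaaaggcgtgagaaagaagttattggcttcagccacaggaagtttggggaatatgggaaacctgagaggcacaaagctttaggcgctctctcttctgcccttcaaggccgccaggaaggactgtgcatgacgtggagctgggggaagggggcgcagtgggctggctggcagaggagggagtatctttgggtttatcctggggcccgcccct
The match in Mmp13 is TGACTCA, 35 bases before the start, and TATAAA stands 16 bases before the start, while the match at the downstream Mmp12 start is TGAGTCA, 44 bases before it. The other Mmp12 start and the promoters of Timp1, Timp2, Timp3 and Mmp14 hold neither set of letters in this window. Of all 32851 promoters of the table, 6.75% hold TGANTCA and 12.4% hold TATAAA in the same 250 bases, so these matches are a description of the windows and no evidence of binding.

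Libraries held 50078966 to 66727450 counts. Levels are CPM, a gene's counts scaled to the depth of its library, with edgeR's TMM factors. The liver label held, with hepatocyte marker sums of 74300 to 117000 CPM. In 6 libraries the 12 pancreatic acinar markers summed to over 100 CPM, namely HFD DTMB replicate 3, HFD vehicle replicates 1 and 4, HFD-cohort normal-diet replicates 1 and 3, and MCD-cohort normal-diet replicate 4. The same HFD-cohort normal-diet replicate 1 held 164 CPM of a list of muscle, fat and mesothelial genes, against at most 8.69 CPM in the other 21 libraries. Every one of the 10 genes passed the count filter in both cohorts, but Timp1 and Mmp13 in the HFD cohort passed through the HFD vehicle libraries alone, and Timp1, Mmp12 and Mmp13 in the MCD cohort through the MCD vehicle and MCD DTMB libraries, so that these genes passed only where they were high and had to differ. Timp1 lies inside Syn1 and Timp3 inside Syn3, each on the opposite strand, and whether the counting used strand is not given in the sources used here, so their reads may include antisense ones. Syn1 held 5 to 37 counts per library with the HFD cohort's mice and 0 to 68 with the MCD cohort's mice, and Syn3 held 25 to 118 and 10 to 73.

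Per kilobase of exon (GENCODE M21 exon union), Mmp14, the membrane-bound protease that activates Mmp2, had the highest level of the 10 genes in every group but MCD vehicle. It stood at 6.06 ± 0.908 CPM per kb in HFD DTMB livers, 6.08 ± 0.824 in HFD vehicle livers and 7.90 ± 1.67 in their normal-diet livers (SD, n = 4, 4 and 3). Timp2 and Timp3 were next in these groups. Their ranges overlapped in the vehicle and normal-diet livers and not in the DTMB livers, where Timp2 was at 2.30 ± 0.186 and Timp3 at 1.75 ± 0.139 CPM per kb. In the normal-diet livers of the HFD cohort, Mmp13 was the lowest at 0.0176 ± 0.0213 CPM per kb, below Mmp12 at 0.0625 ± 0.0160. In MCD vehicle livers Mmp12 averaged 13.7 ± 8.71 CPM per kb (SD, n = 4) and Mmp14 9.21 ± 1.53, with overlapping ranges. In MCD DTMB livers Mmp14 was at 8.46 ± 1.67 CPM per kb and Mmp12 at 7.30 ± 5.06 (SD, n = 3), also overlapping, and no other of the 10 genes reached the range of either.

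The share of Timp1 among the TIMPs and of Mmp12 among the metalloproteinases was higher in diet vehicle livers than in normal-diet livers without overlap in both cohorts, while the share of Loxl2 among the lysyl oxidases overlapped. Of the summed level per length of the 4 metalloproteinases, Mmp12 made up 32.5% to 49.2% in MCD DTMB livers, 38.7% to 66.7% in MCD vehicle livers and 0.23% to 2.52% in their normal-diet livers. In the HFD cohort the Mmp12 share was 0.345% to 4.35% with DTMB, 3.85% to 8.68% with vehicle and 0.48% to 1.13% on the normal diet. Timp1 made up 0% to 6.86% of the 3 TIMPs in HFD DTMB livers, 7.82% to 21.8% in HFD vehicle livers and 0% to 2.44% in their normal-diet livers. In the MCD cohort its share was 6.19% to 30.4% with DTMB, 11.8% to 17.6% with vehicle and 0% to 6.90% on the normal diet. Loxl2 made up 36.5% to 50.2% of the 3 lysyl oxidases in HFD DTMB livers, 32.0% to 46.5% in HFD vehicle livers and 40.9% to 42.6% in their normal-diet livers, and 52.1% to 54.3% with DTMB, 49.0% to 62.2% with vehicle and 42.8% to 53.5% on the normal diet in the MCD cohort. The Mmp14 share was lower in diet vehicle than in normal-diet livers without overlap in both cohorts. Its ranges were 71.4% to 82.6% against 88.8% to 92.0% with HFD and 21.5% to 52.3% against 79.5% to 87.5% with MCD. The Timp3 share was lower with HFD, at 30.0% to 34.4% against 44.3% to 51.1%, and overlapped with MCD. Timp1 in both cohorts and Mmp12 in the MCD cohort passed the count filter only where they were high and had to differ. The shares rest on exon lengths and carry no test.

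**Figure D1:**
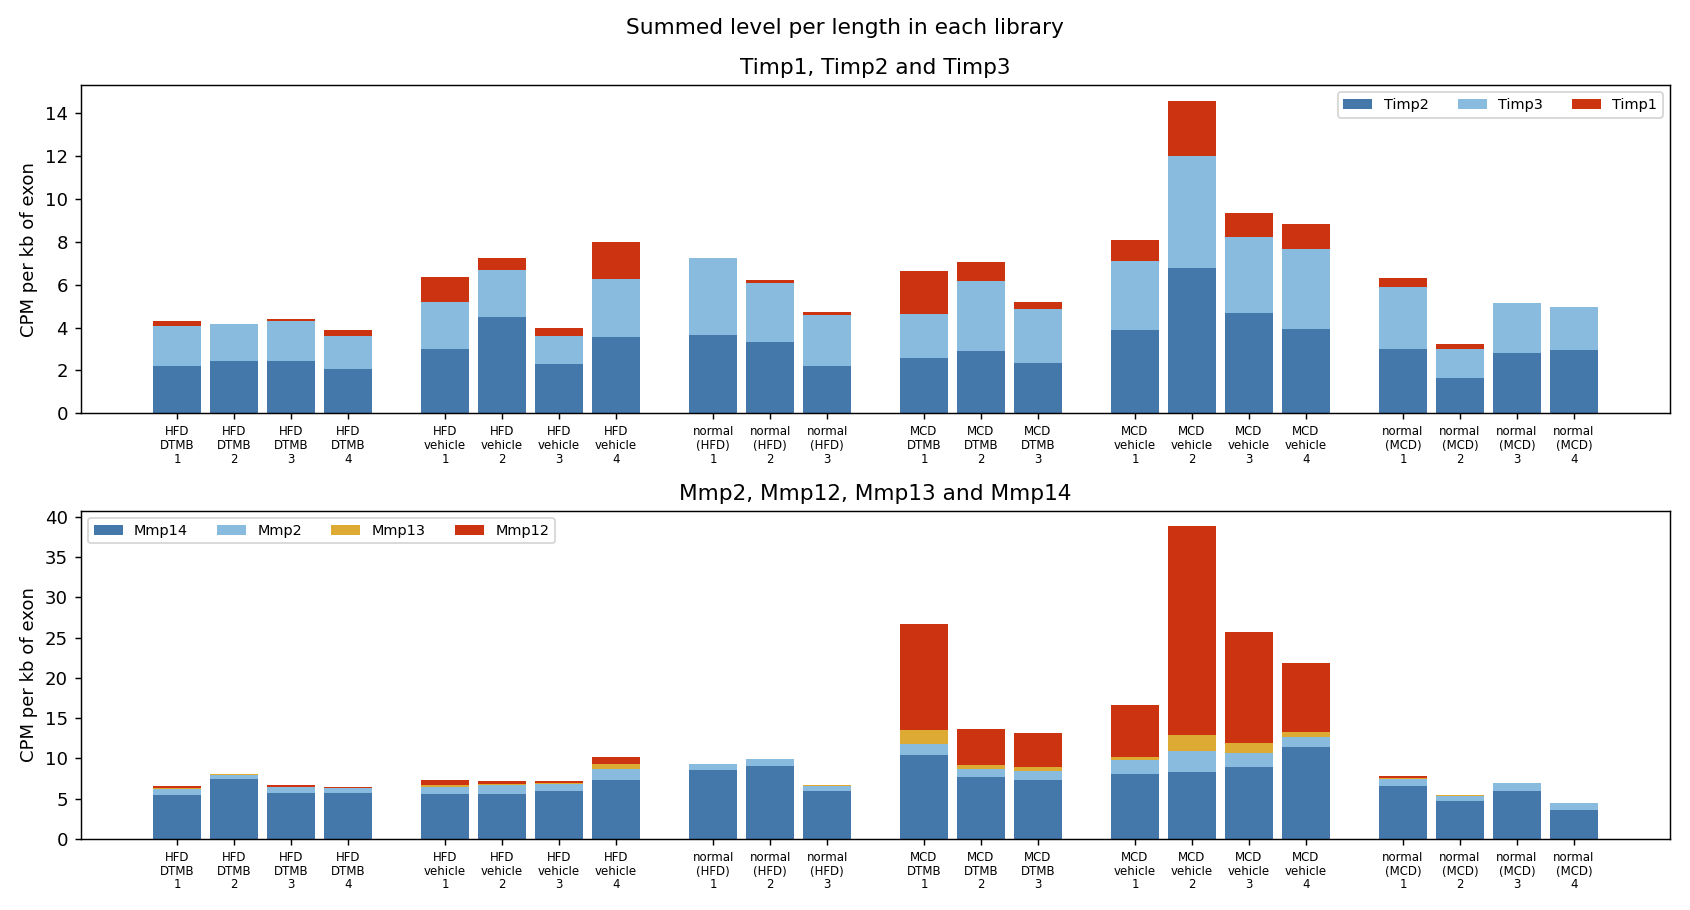
Stacked levels (CPM per kb of exon) of the 3 TIMPs (top) and the 4 metalloproteinases (bottom) in each of the 22 libraries, with DTMB left of diet vehicle and of the normal diet of the same cohort. Mmp12 fills 38.7% to 66.7% of the bar in MCD vehicle livers and 0.23% to 2.52% in their normal-diet livers.

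The first question was what each diet did to these genes. With the high-fat diet 5 of the 10 genes rose and none fell: Timp1, Mmp12, Mmp13, Loxl1 and Loxl2 (edgeR's quasi-likelihood test, Benjamini-Hochberg adjusted p under 0.05 over all 15597 genes tested). Over all genes 27.8% were called in this comparison, 15.2% higher and 12.6% lower. With the MCD diet 8 of the 10 rose and none fell, all but Lox and Loxl1, where 41.3% of 16037 genes were called, 20.3% higher and 21.0% lower. The median log2 fold change of the 10 genes was 0.72 with the high-fat diet, against 0.015 over all genes, and 1.13 with the MCD diet, against 0.004 over all genes. Libraries of the diet group lay wholly above those of the normal-diet group for 5 of the 10 genes with the high-fat diet, where 19.0% of all genes did so, and for 7 with the MCD diet, where 17.8% of all genes did so. Scaling by library size alone moved the median of all genes to 0.14 for the high-fat diet and 0.468 for the MCD diet, and the calls over all genes from that scaling were 3361 higher and 1030 lower, against 2374 and 1958 with TMM factors, for the high-fat diet, and 7683 higher and 1170 lower, against 3253 and 3373, for the MCD diet. The called members kept their direction under it. The counts, medians and overlaps above include Timp1 and Mmp13 in the HFD cohort and Timp1, Mmp12 and Mmp13 in the MCD cohort. These passed the filter only where they were high and had to differ. The 10 genes were also chosen with earlier results of these data known, so their counts are descriptions.

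The second question was how DTMB changed the livers on each diet. In the HFD cohort all 10 estimates were negative and 5 genes fell: Timp1, Mmp12, Mmp13, Lox and Loxl1, where 12.7% of all genes were called, 6.64% higher and 6.04% lower. The median log2 fold change was -0.85 for the 10 genes and -0.015 for all genes. The counts and the median here include Timp1 and Mmp13, which passed the filter through the HFD vehicle libraries alone. Libraries with DTMB lay wholly below those with vehicle for 4 of the 10 genes (Timp1, Mmp13, Mmp2 and Loxl1), where 9.35% of all genes did so. Of these, Timp1 and Mmp13 passed the filter only where they were high and had to differ. The called adjusted p-values ran from 0.0259 to 0.0475, and Loxl2 (0.0508), Mmp2 (0.0581) and Timp2 (0.0806) stood just outside. The count of called genes was 0 of 10 without HFD vehicle replicate 1, 2 or 4 or HFD DTMB replicate 2, 3 or 4, left out in turn, 3 without normal-diet replicate 3 and 9 without HFD vehicle replicate 3. Calls over all genes moved too, from 1978 to between 483 and 957 in the fits with 0 of 10. They were 1901 without normal-diet replicate 3 and 2562 without HFD vehicle replicate 3. Library-size scaling called 8 of the 10 and moved the split over all genes to 406 higher and 2393 lower, against 1036 and 942 with TMM factors, with a median of -0.166.

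In the MCD cohort none of the 10 genes was called for DTMB, all 10 estimates were again negative, and the median was -0.63 against 0.017 over all genes. One gene of 16037 was called in the whole table (0.00624%), while 5.34% had an unadjusted p under 0.05, among them Timp2, Timp3 and Mmp2. DESeq2 called 8 genes, none of these 10. The difference between the cohorts' DTMB responses was itself tested, and edgeR called 0 of 16541 genes, with 8.55% at an unadjusted p under 0.05, and DESeq2 36, none of these 10. The cohorts are therefore not shown to differ in the response of these genes to DTMB.

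**Figure D2:**
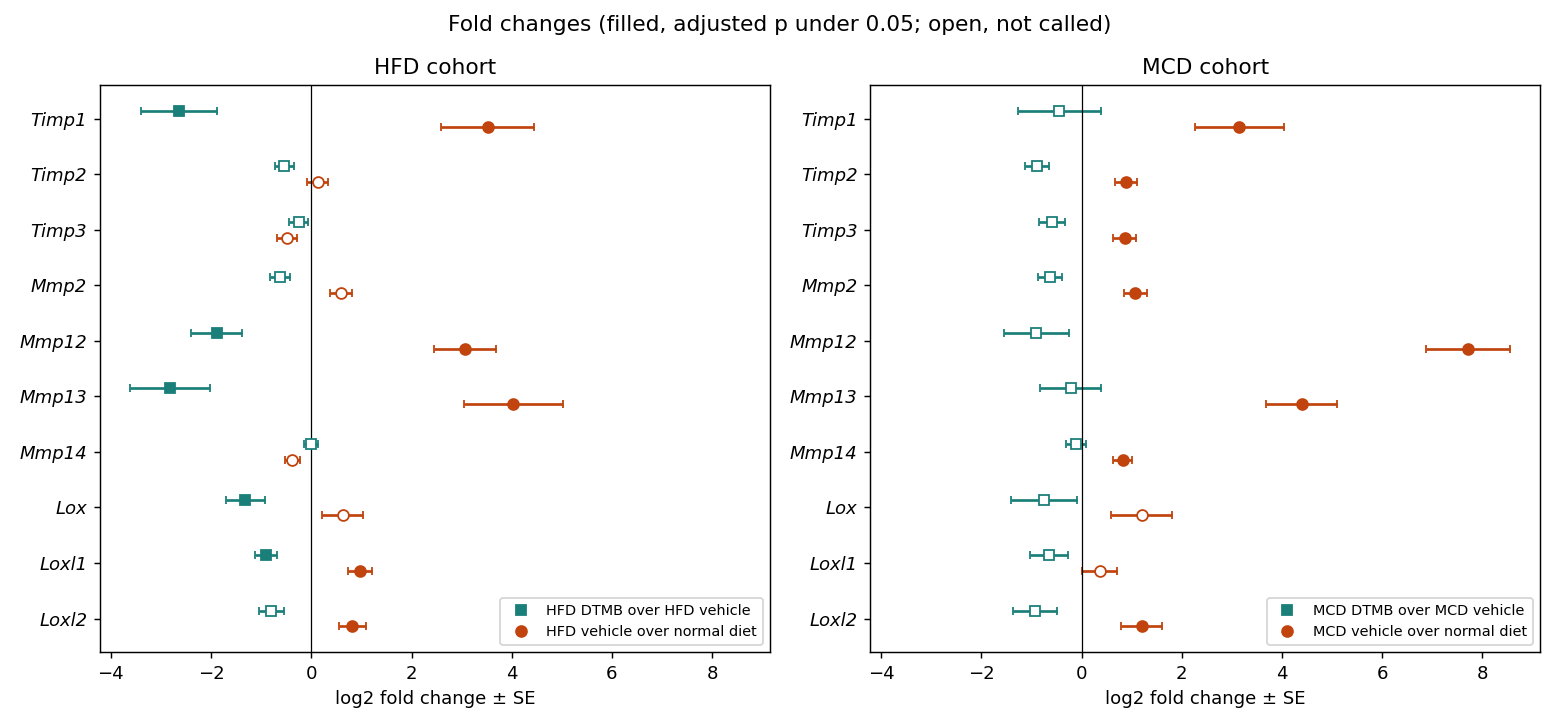
Log2 fold change ± SE of each gene for DTMB over diet vehicle (squares) and for diet vehicle over normal diet (circles), filled where the adjusted p was under 0.05. In the HFD cohort 5 squares are filled, all left of 0, and in the MCD cohort none is.

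Among the inhibitors, Timp1, the inducible TIMP of injured liver, was barely detected on the normal diet. Its level in the HFD cohort was 0.18, 0, 0.115 and 0.237 CPM in DTMB livers, 1.01, 0.505, 0.339 and 1.55 CPM in vehicle livers, and 0, 0.134 and 0.092 CPM in normal-diet livers. These are 0 to 14 counts per library with DTMB, 21 to 100 with vehicle and 0 to 7 on the normal diet. All 4 HFD vehicle libraries lay above every other library of the cohort, and replicates 1 and 4, which carry the acinar markers, were the highest. Timp1 rose with the high-fat diet by 3.52 ± 0.93 on the log2 scale (SE, adjusted p = 0.0148) and changed by -2.64 ± 0.76 with DTMB (adjusted p = 0.0431). On the MCD side Timp1 was at 1.79, 0.805 and 0.285 CPM in DTMB livers, 0.848, 2.28, 1.00 and 1.06 CPM in vehicle livers, and 0.388, 0.18, 0 and 0 CPM in normal-diet livers. Vehicle livers lay above normal-diet livers, with a log2 fold change of 3.15 ± 0.89 (adjusted p = 0.0146), whereas DTMB livers spread over the range of both. The DTMB estimate was -0.44 ± 0.83 (adjusted p = 0.965).

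Timp2 and Timp3 are the constitutive TIMPs. Timp2, which also takes part in the activation of Mmp2 on the cell surface, was at 8.70, 9.54, 9.55 and 8.06 CPM in HFD DTMB livers, 11.8, 17.6, 9.01 and 13.9 CPM in HFD vehicle livers, and 14.3, 12.9 and 8.59 CPM in their normal-diet livers. Vehicle and normal-diet libraries overlapped, and the DTMB libraries were low and close together, overlapping vehicle replicate 3. The HFD estimates were 0.13 ± 0.21 for the diet (adjusted p = 0.677) and -0.54 ± 0.19 for DTMB (adjusted p = 0.0806). For the MCD mice Timp2 was at 10.0, 11.3 and 9.11 CPM with DTMB, 15.2, 26.4, 18.3 and 15.4 CPM with vehicle, and 11.7, 6.38, 10.9 and 11.6 CPM on the normal diet. The MCD vehicle libraries lay above all others, while DTMB and normal-diet libraries overlapped. Timp2 rose with the MCD diet by 0.89 ± 0.22 (adjusted p = 0.00656). The DTMB estimate was -0.89 ± 0.24, with no overlap between groups (3.27% of all genes lay wholly lower), but its adjusted p was 0.919 from an unadjusted 0.00281.

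Timp3, the matrix-bound inhibitor that also blocks ADAM proteases, was at 15.2, 14.2, 15.0 and 12.7 CPM in HFD DTMB livers, 17.8, 17.8, 10.6 and 21.9 CPM in HFD vehicle livers, and 29.3, 22.4 and 19.6 CPM in their normal-diet livers. The normal-diet libraries were high, vehicle replicate 4 reached into their range, and those with DTMB lay wholly below them. The estimates were -0.48 ± 0.20 for the high-fat diet (adjusted p = 0.0899) and -0.25 ± 0.19 for DTMB (adjusted p = 0.376). With MCD feeding, Timp3 was at 16.6, 26.6 and 20.6 CPM with DTMB, 26.2, 42.8, 28.6 and 30.2 CPM with vehicle, and 23.6, 11.3, 18.9 and 16.4 CPM on the normal diet. Vehicle lay above normal diet without overlap, and DTMB overlapped both. Timp3 rose with the MCD diet by 0.86 ± 0.23 (adjusted p = 0.0101), and the DTMB estimate was -0.59 ± 0.25 (adjusted p = 0.919).

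**Figure D3:**
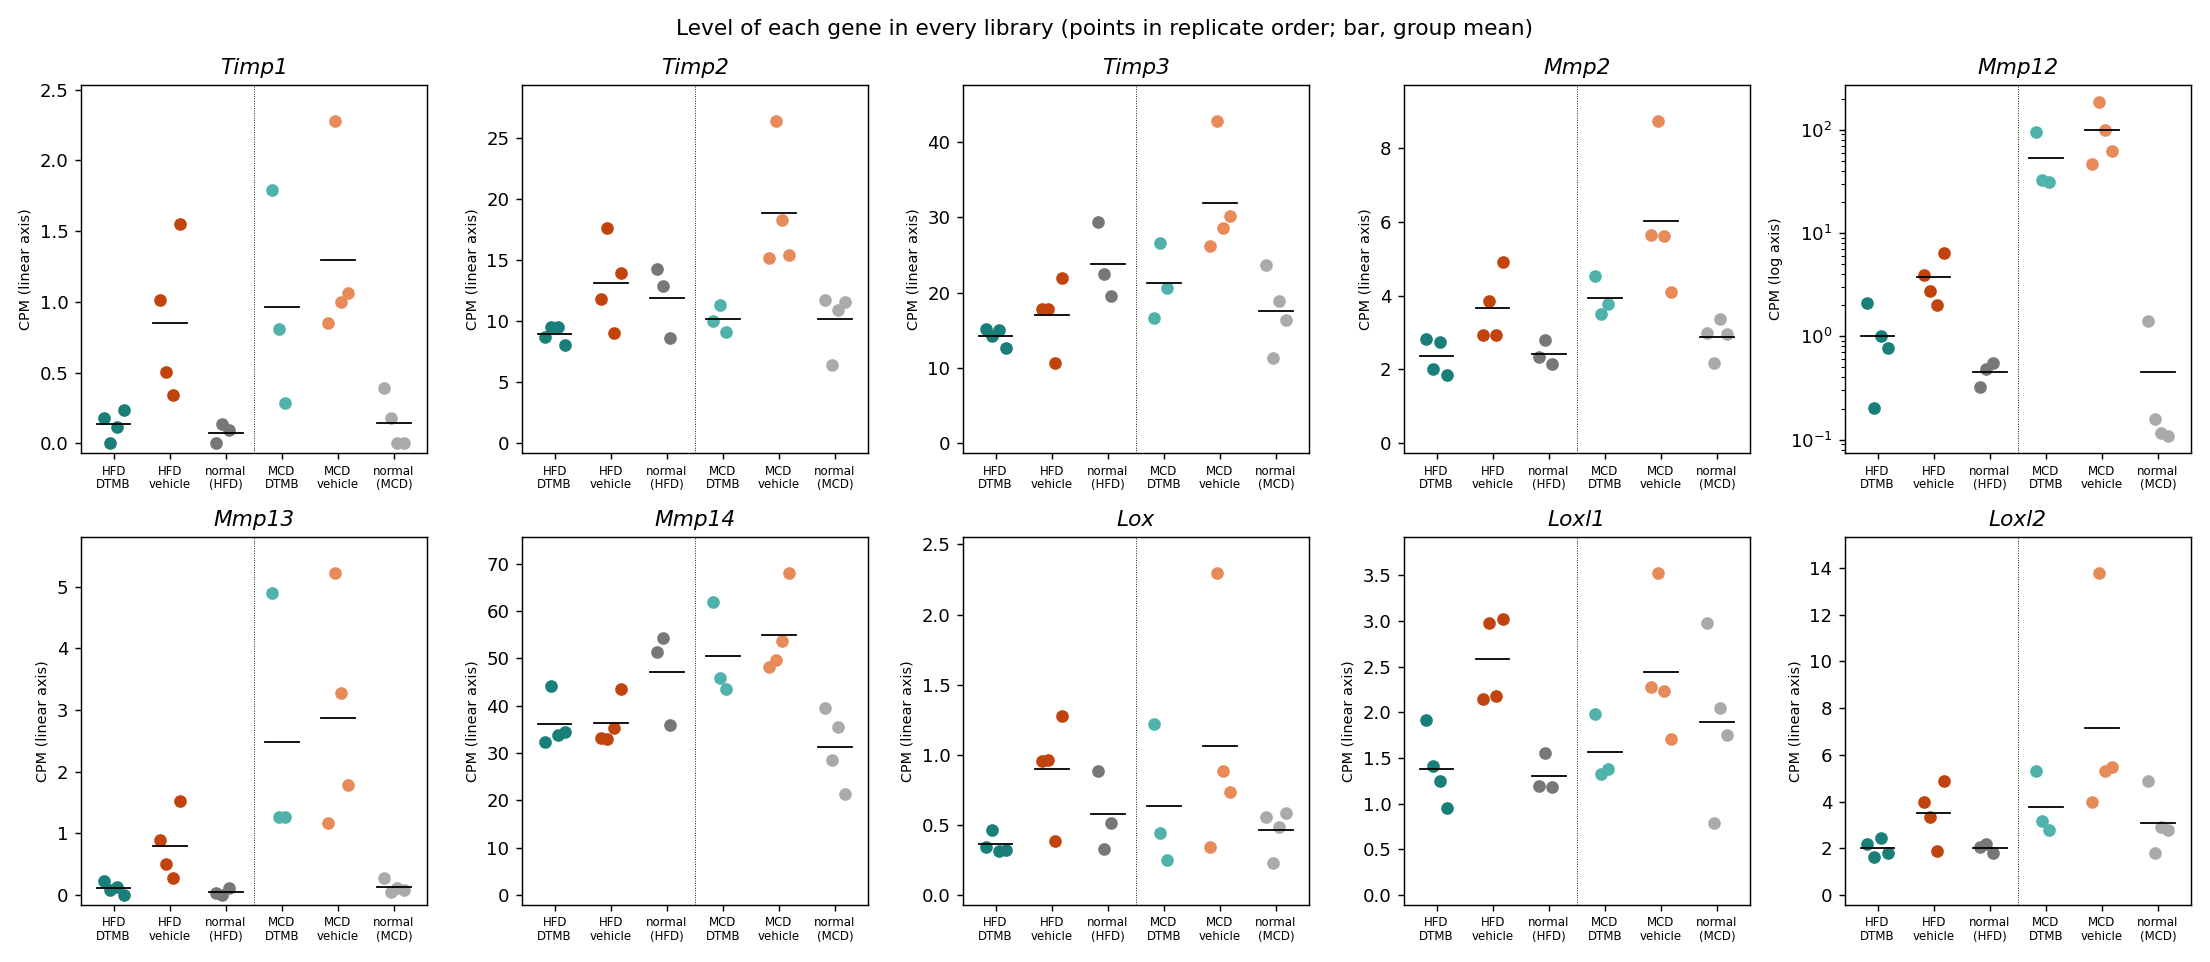
CPM of the 10 genes in every library (points in replicate order, bars the group means), on a linear axis for all but Mmp12, which is on a log axis. Mmp12 runs from 46.5 to 187 CPM in MCD vehicle livers and from 0.108 to 1.42 CPM in their normal-diet livers.

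Among the proteases, Mmp12 had the largest diet estimate of the 10 genes in the MCD cohort. In the HFD cohort the largest estimates were those of Mmp13 and Timp1, which lay within their standard errors of each other and ran from 3.50 to 5.40 for Mmp13 and from 2.88 to 4.24 for Timp1 when 1 library was left out. In the HFD cohort Mmp12 was at 2.09, 0.201, 1.00 and 0.779 CPM with DTMB, 3.96, 2.76, 2.00 and 6.41 CPM with vehicle, and 0.325, 0.48 and 0.552 CPM on the normal diet. Vehicle lay above normal diet, and one DTMB library (replicate 1) reached just above the lowest vehicle library. Mmp12 rose with the high-fat diet by 3.07 ± 0.62 (adjusted p = 0.00376) and changed by -1.89 ± 0.51 with DTMB (adjusted p = 0.0359). MCD-cohort Mmp12 was at 95.1, 32.4 and 31.0 CPM with DTMB, 46.5, 187, 99.9 and 61.7 CPM with vehicle, and 1.42, 0.158, 0.116 and 0.108 CPM on the normal diet. The diet groups stood far above the normal diet, with vehicle replicate 2 and DTMB replicate 1 at the top of their groups and normal-diet replicate 1 above the other 3. Mmp12 averaged 98.8 ± 63.0 CPM with vehicle and 0.452 ± 0.649 CPM on the normal diet (SD, n = 4 each), a log2 fold change of 7.71 ± 0.84 (adjusted p = 3.54e-05). The DTMB estimate was -0.90 ± 0.65 (adjusted p = 0.924).

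Mmp13, the main interstitial collagenase of rodents, was at 0.234, 0.0805, 0.132 and 0 CPM in HFD DTMB livers, 0.891, 0.505, 0.274 and 1.52 CPM in HFD vehicle livers, and 0.031, 0 and 0.11 CPM in their normal-diet livers. These are at most 13 counts with DTMB, 17 to 98 with vehicle and at most 6 on the normal diet, and vehicle lay above both other groups. Mmp13 rose with the high-fat diet by 4.03 ± 0.99 (adjusted p = 0.0104) and changed by -2.82 ± 0.79 with DTMB (adjusted p = 0.0386). MCD-cohort Mmp13 was at 4.90, 1.26 and 1.27 CPM with DTMB, 1.16, 5.23, 3.27 and 1.79 CPM with vehicle, and 0.277, 0.0451, 0.116 and 0.0863 CPM on the normal diet. The diet groups lay wholly above the normal diet and overlapped each other. The diet estimate was 4.39 ± 0.70 (adjusted p = 0.000493) and the DTMB estimate -0.22 ± 0.60 (adjusted p = 0.98). Across the 11 libraries of a cohort, which fall into 3 groups, the log2 CPM of Mmp12 and Mmp13 correlated with r = 0.848 in the HFD cohort and 0.975 in the MCD cohort.

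The run of neighbours on chromosome 9 holds 10 metalloproteinase genes between 7272514 and 7699585, of which 5 were tested in the HFD cohort and 6 in the MCD cohort, Mmp12 and Mmp13 included. With the MCD diet Mmp7, matrilysin, rose by 5.07 (adjusted p = 0.000736) and Mmp8, the neutrophil collagenase, by 3.61 (adjusted p = 0.00584). Both averaged below the count filter on the normal diet and passed it only through the MCD vehicle and MCD DTMB libraries, so that they had to differ. Mmp3 (0.75, adjusted p = 0.516) and Mmp27 (1.01, adjusted p = 0.259) were not called. With the high-fat diet Mmp7 had a log2 fold change of -0.83 (adjusted p = 0.456), Mmp3 of -0.99 (adjusted p = 0.586) and Mmp27 of 1.33 (adjusted p = 0.223). Mmp1a, Mmp1b, Mmp10 and Mmp20 had 0 counts in all libraries.

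Mmp2, the gelatinase that stellate cells make, moved within a narrower range. It was at 2.82, 2.01, 2.75 and 1.84 CPM in HFD DTMB livers, 2.93, 3.85, 2.94 and 4.92 CPM in HFD vehicle livers, and 2.34, 2.80 and 2.15 CPM in their normal-diet livers. Vehicle lay above both other groups without overlap, yet the estimates missed the threshold, at 0.59 ± 0.22 for the diet (adjusted p = 0.0635) and -0.63 ± 0.20 for DTMB (adjusted p = 0.0581). In MCD-cohort livers Mmp2 was at 4.53, 3.50 and 3.77 CPM with DTMB, 5.65, 8.74, 5.63 and 4.11 CPM with vehicle, and 2.98, 2.17, 3.37 and 2.96 CPM on the normal diet. It rose with the MCD diet by 1.07 ± 0.23 (adjusted p = 0.00288), and the DTMB estimate was -0.62 ± 0.24 (adjusted p = 0.919), with overlap through vehicle replicate 4.

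Mmp14 was at 32.3, 44.1, 33.7 and 34.4 CPM in HFD DTMB livers, 33.2, 33.0, 35.3 and 43.4 CPM in HFD vehicle livers, and 51.3, 54.2 and 35.8 CPM in their normal-diet livers. The DTMB and vehicle groups covered nearly the same range, and 2 of the 3 normal-diet libraries lay above it. The estimates were -0.38 ± 0.15 for the high-fat diet (adjusted p = 0.0872) and -0.00 ± 0.14 for DTMB (adjusted p = 0.988). MCD-cohort Mmp14 was at 61.8, 45.8 and 43.6 CPM with DTMB, 48.1, 49.7, 53.6 and 68.1 CPM with vehicle, and 39.5, 28.4, 35.4 and 21.4 CPM on the normal diet. Both MCD groups lay above the normal diet, with an estimate of 0.82 ± 0.19 for the diet (adjusted p = 0.00522) and -0.12 ± 0.20 for DTMB (adjusted p = 0.957).

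Among the cross-linking enzymes, Lox was low in all groups. Its level was 0.342, 0.463, 0.313 and 0.322 CPM in HFD DTMB livers, 0.952, 0.962, 0.387 and 1.28 CPM in HFD vehicle livers, and 0.883, 0.326 and 0.515 CPM in their normal-diet livers. Vehicle replicate 3 alone overlapped the DTMB group, and normal-diet libraries spread over both. Lox changed by -1.32 ± 0.39 with DTMB (adjusted p = 0.0475), while the high-fat diet estimate was 0.63 ± 0.41 (adjusted p = 0.281). In MCD-cohort livers Lox was at 1.22, 0.439 and 0.252 CPM with DTMB, 0.339, 2.30, 0.884 and 0.733 CPM with vehicle, and 0.555, 0.226, 0.484 and 0.583 CPM on the normal diet. All 3 groups overlapped, with MCD vehicle replicate 2 and DTMB replicate 1 the highest, and neither the diet (1.20 ± 0.61, adjusted p = 0.134) nor DTMB (-0.75 ± 0.65, adjusted p = 0.925) was called.

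Loxl1, a paralog known for its part in elastic fibres, was at 1.92, 1.41, 1.25 and 0.948 CPM in HFD DTMB livers, 2.15, 2.98, 2.18 and 3.02 CPM in HFD vehicle livers, and 1.19, 1.55 and 1.18 CPM in their normal-diet livers. The 4 vehicle libraries lay above the other 7, with changes of 0.98 ± 0.24 for the diet (adjusted p = 0.0111) and -0.90 ± 0.22 for DTMB (adjusted p = 0.0259). MCD-cohort Loxl1 was at 1.98, 1.32 and 1.38 CPM with DTMB, 2.28, 3.53, 2.23 and 1.71 CPM with vehicle, and 2.98, 0.79, 2.05 and 1.75 CPM on the normal diet. The groups overlapped, and the estimates were 0.36 ± 0.35 for the diet (adjusted p = 0.429) and -0.65 ± 0.38 for DTMB (adjusted p = 0.923).

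Loxl2, a secreted oxidase studied as a target in liver fibrosis, was at 2.19, 1.63, 2.42 and 1.81 CPM in HFD DTMB livers, 3.99, 3.33, 1.89 and 4.88 CPM in HFD vehicle livers, and 2.04, 2.17 and 1.78 CPM in their normal-diet livers. Vehicle replicate 3 lay inside the range of both other groups, and the other 3 vehicle libraries lay above it. Loxl2 rose with the high-fat diet by 0.82 ± 0.27 (adjusted p = 0.0401), and the DTMB estimate was -0.80 ± 0.25 (adjusted p = 0.0508). In the MCD cohort it was at 5.32, 3.16 and 2.77 CPM with DTMB, 3.97, 13.8, 5.29 and 5.46 CPM with vehicle, and 4.88, 1.78, 2.92 and 2.76 CPM on the normal diet. The MCD estimate was 1.20 ± 0.41 (adjusted p = 0.0342), and without vehicle replicate 2 it was 0.66 (adjusted p = 0.126). It also missed the threshold without normal-diet replicate 2 (1.01, adjusted p = 0.0837), 3 (1.17, adjusted p = 0.0742) or 4 (1.15, adjusted p = 0.0756). The DTMB estimate was -0.93 ± 0.44 (adjusted p = 0.919). For the high-fat diet the Loxl2 call was lost without any 1 of the 3 normal-diet libraries or of vehicle replicates 1, 2 and 4, with adjusted p-values of 0.0623 to 0.113.

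The HFD results were also fitted without the libraries with acinar markers. Without the 5 such libraries of the HFD cohort, which left 3 DTMB, 2 vehicle and 1 normal-diet livers, none of the 10 genes was called for the diet or for DTMB. The diet estimates were then 1.63 for Timp1, 2.30 for Mmp12, 7.48 for Mmp13, 0.72 for Loxl1 and 0.26 for Loxl2, and the DTMB estimates -1.56 for Timp1, -1.21 for Mmp12, -1.89 for Mmp13, -0.85 for Lox and -0.86 for Loxl1. Mmp13 had 0 counts in the 1 normal-diet library left, so its diet estimate rests on the prior count of the fit and is no bound. The acinar markers and the smaller number of libraries cannot be told apart in this fit, since leaving out single libraries without these markers also ended the DTMB calls. Over all genes 655 were then called for the high-fat diet and 0 for DTMB.

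DTMB-treated livers were also set against the normal diet of their own cohort, and whether this contrast differs between the cohorts was not tested. In HFD DTMB livers Timp3 fell by 0.74 ± 0.20 on the log2 scale (adjusted p = 0.0157) and none of the other 9 genes was called, where 29.2% of all genes were called, 15.7% higher and 13.5% lower. Without normal-diet replicate 1 the Timp3 estimate was -0.58 (adjusted p = 0.0753). Timp1 stood at 0.89 ± 1.01, Mmp12 at 1.18 ± 0.62 and Mmp13 at 1.21 ± 1.10, all with adjusted p-values of 0.178 or above, so that neither a return to the normal-diet level nor a remaining excess is shown. In MCD DTMB livers 4 of the 10 genes were higher than on the normal diet: Timp1 (2.71 ± 0.93, adjusted p = 0.0429), Mmp12 (6.80 ± 0.83, adjusted p = 0.000113), Mmp13 (4.17 ± 0.72, adjusted p = 0.00113) and Mmp14 (0.69 ± 0.20, adjusted p = 0.0218), where 32.6% of all genes were called and 16.2% higher. Without MCD DTMB replicate 1, the highest for all 4, Timp1 was at 1.91 (adjusted p = 0.2) and Mmp14 at 0.52 (adjusted p = 0.109). The Mmp14 call was also lost without normal-diet replicate 2 (0.65, adjusted p = 0.0504), and the Timp1 call without any 1 of normal-diet replicates 2, 3 and 4, vehicle replicates 3 and 4 and DTMB replicate 2, with adjusted p-values of 0.053 to 0.0795. These comparisons share their DTMB or normal-diet libraries with those above. In the MCD cohort Timp1, Mmp12 and Mmp13 passed the filter only through the MCD vehicle and MCD DTMB libraries.

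The diet responses of the cohorts were compared in 1 fit of all 22 libraries. The response to MCD exceeded that to the high-fat diet for Timp3 by 1.37 ± 0.33 on the log2 scale (adjusted p = 0.00309), for Mmp12 by 4.66 ± 1.12 (adjusted p = 0.00287) and for Mmp14 by 1.22 ± 0.26 (adjusted p = 0.00114), where 35.3% of 16541 genes differed, 16.8% higher. For Timp1 the difference was -0.35 ± 1.36 (adjusted p = 0.873), for Mmp13 0.38 ± 1.51 (adjusted p = 0.875) and for Loxl2 0.41 ± 0.53 (adjusted p = 0.588), with standard errors too wide to show likeness. Without the 6 libraries with acinar markers the Mmp12 difference was 5.12 (adjusted p = 0.096). The difference for Timp2 was 0.78 ± 0.32 (adjusted p = 0.0674). Diet, length of feeding and batch cannot be told apart in it.

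Other genes of the same pathways were read from 7 lists, whose counts stand beside the shares called over all genes: 27.8% for the high-fat diet, 12.7% for DTMB in the HFD cohort and 41.3% for the MCD diet. Of 10 other metalloproteinases tested in the HFD cohort, 2 rose and 1 fell with the diet, and none was called for DTMB. Mmp15, a membrane-type relative of Mmp14, rose with both diets, by 0.64 ± 0.087 with HFD (adjusted p = 0.000294) and 0.65 ± 0.12 with MCD (adjusted p = 0.00123). Mmp19 rose with the high-fat diet by 0.42 ± 0.087 (adjusted p = 0.00414) and fell with MCD by 0.54 (adjusted p = 0.0113), while Mmp11 (stromelysin 3) fell with the high-fat diet by 1.55 (adjusted p = 0.00474). Of 12 tested in the MCD cohort, 4 rose and 1 fell with the diet. Both directions together, the metalloproteinase counts are near the share over all genes for both diets. By direction, the rises with MCD lay above the 20.3% of all genes that rose, and the fall below the 21.0% that fell. These rises include Mmp7, Mmp8 and Mmp24, which averaged 0.0711, 0.0277 and 0.0139 CPM on the normal diet. All 3 lay below the filter's cutoff of 0.163 CPM there, passed it only where they were high and had to differ. The count by direction is therefore no result about the family. Library-size scaling called 8 of the 12 higher and none lower with MCD, and without the acinar libraries 1 of the 10 was lower and none higher with the high-fat diet and 6 of the 12 were higher and 1 lower with MCD. Of the other inhibitors, Pzp, a broad protease trap of plasma, fell with the MCD diet by 0.99 ± 0.14 (adjusted p = 0.000192), and Reck, a membrane-anchored inhibitor, was not called for either diet. Under library-size scaling the MCD estimate of Mmp19 was -0.08 (adjusted p = 0.643), and the HFD calls of Mmp15 and Mmp19 were lost without the acinar libraries (adjusted p = 0.056 and 0.107). Timp4 had at most 16 counts in any library and was not tested.

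Among the lysyl oxidase relatives, Loxl4 fell with both diets, by 1.27 ± 0.35 with HFD (adjusted p = 0.017) and 1.91 ± 0.63 with MCD (adjusted p = 0.0288). In the MCD cohort a single library held 904 of the 2037 Loxl4 counts. Mean levels were 1.64 CPM with MCD DTMB, 1.61 CPM with MCD vehicle and 6.07 CPM on the normal diet, so it was a normal-diet library. The MCD fall may thus rest largely on that library. Of 20 other collagen-modifying genes, 3 rose and 2 fell with the high-fat diet and 6 rose and 3 fell with MCD. Both directions together, this is near the shares over all genes. By direction, the rises with MCD lay above the 20.3% of all genes that rose, and the falls below the 21.0% that fell. Library-size scaling gave 11 higher and 1 lower with MCD, and without the acinar libraries none was higher and 1 lower with the high-fat diet. Serpinh1, the collagen chaperone, rose with the high-fat diet by 1.11 ± 0.17 (adjusted p = 0.000641), and Pcolce, which enhances procollagen processing, by 0.99 ± 0.15 (adjusted p = 0.000763). Plod2, the lysyl hydroxylase of collagen telopeptides, rose with MCD by 1.52 (adjusted p = 0.00813). With DTMB in the HFD cohort Ppib, a collagen-folding isomerase, rose by 0.44 ± 0.075 (adjusted p = 0.00987) and Tgm2, a transglutaminase that cross-links matrix proteins, changed by -0.52 ± 0.11 (adjusted p = 0.0144). Without the acinar libraries Loxl4 and Mmp11 were still called for the high-fat diet, while Serpinh1 (adjusted p = 0.072), Pcolce (0.133) and, for DTMB, Ppib (0.292) and Tgm2 (0.327) lost their calls and kept their direction. The MCD call of Loxl4 was lost under library-size scaling (adjusted p = 0.0695).

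Of 34 matrix substrates 18 rose and none fell with the high-fat diet (median 0.64), 17 fell and none rose with DTMB in that cohort (median -0.71), and 15 rose and 2 fell with MCD (median 0.81). Without the 5 libraries of the HFD cohort with acinar markers, a count added after seeing the data, none of the 34 was called for the high-fat diet (median 0.29) or for DTMB (median -0.52), and of the 11 macrophage markers below, 1 was lower and none higher for the diet and none was called for DTMB. Col1a1, the fibrillar collagen I chain, averaged 4.04 ± 1.80 CPM in HFD DTMB livers, 17.3 ± 6.25 CPM in HFD vehicle livers and 2.91 ± 1.07 CPM in their normal-diet livers (SD, n = 4, 4 and 3). Its changes were 2.57 ± 0.41 for the diet (adjusted p = 0.000857) and -2.10 ± 0.36 for DTMB (adjusted p = 0.00987). Of 20 ADAM and ADAMTS proteases 4 rose and none fell with the high-fat diet, 2 fell and none rose with DTMB there, and 8 rose and 1 fell with MCD. Both directions together, these counts were below the shares over all genes for the HFD cohort and near them for MCD. By direction, the rises with the high-fat diet and the falls with DTMB were near the shares over all genes of 15.2% and 6.04%. The rises with MCD lay above the 20.3% of all genes that rose, and the counts in the other direction lay below their shares. Library-size scaling gave 7 lower and none higher for DTMB in the HFD cohort and 16 higher and none lower for MCD, and without the acinar libraries 1 was higher for the high-fat diet and none was called for DTMB. Adamts4, an aggrecanase, averaged 0.296 ± 0.0749 CPM with DTMB, 1.06 ± 0.505 CPM with vehicle and 0.263 ± 0.161 CPM on the normal diet of the HFD cohort, changing by 1.98 ± 0.49 with the diet (adjusted p = 0.0113) and -1.83 ± 0.44 with DTMB (adjusted p = 0.024). Adam8, a protease of leukocytes, rose with MCD by 6.56 ± 0.67 (adjusted p = 2.16e-05). It averaged 13.1 ± 6.35 CPM with MCD vehicle and 0.133 ± 0.0938 CPM on the normal diet (SD, n = 4 each). The normal-diet mean lay below the filter's cutoff of 0.163 CPM, so low counts and the filter both limit this estimate. In the HFD cohort Adam8 is among the 4 rises with the diet. Its normal-diet mean there was 0.0971 CPM, below the cutoff of 0.167 CPM, so it passed only where it was high and had to differ.

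Of 10 genes of the plasminogen system 5 rose and 1 fell with the high-fat diet, 1 rose and 3 fell with DTMB there, and 5 rose and 3 fell with MCD. Without the acinar libraries 2 of the 10 were higher and none lower for the high-fat diet, and none was called for DTMB in the HFD cohort. Anxa2, a cell-surface plasminogen co-receptor, was at 11.6 ± 1.90 CPM with DTMB, 33.8 ± 10.0 CPM with vehicle and 7.26 ± 0.468 CPM on the normal diet of the HFD cohort. It changed by 2.22 ± 0.21 with the diet (adjusted p = 3.31e-05) and by -1.54 ± 0.18 with DTMB (adjusted p = 0.0041). Of 13 cysteine cathepsins and cystatins 4 rose and 1 fell with the high-fat diet, 1 rose and 1 fell with DTMB there, and 7 rose and 1 fell with MCD. Library-size scaling gave 6, none and 11 higher and none, 3 and none lower in these comparisons, and without the acinar libraries 1 was higher for the high-fat diet and none was called for DTMB in the HFD cohort. Ctsk, the collagen-degrading cathepsin K, rose with MCD by 3.71 ± 0.44 (adjusted p = 5.97e-05). None of the genes of these lists was called for DTMB in the MCD cohort, where Ctsk stood at 1.13 ± 0.600 CPM with DTMB (n = 3) and 3.53 ± 1.12 CPM with vehicle (n = 4), with an adjusted p of 0.919. Without the acinar libraries Anxa2 was still called for the high-fat diet (adjusted p = 0.0122) and not for DTMB (0.0906), and Col1a1 (0.119 for the diet and 0.243 for DTMB) and Adamts4 (0.126 and 0.319) lost both calls, all in the same direction as before.

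Cell-type markers moved beside these genes, and their part in the results was not tested. Of 11 markers of monocytes and lipid-associated macrophages, none at 0, 8 rose and 1 fell with the high-fat diet, 4 fell and none rose with DTMB in that cohort, and 8 rose and none fell with MCD. Their summed level was 74.3 to 114 CPM in HFD DTMB livers, 113 to 180 CPM in HFD vehicle livers and 84.8 to 85.3 CPM in their normal-diet livers. In the MCD cohort the sum was 193 to 427 CPM with DTMB, 408 to 980 CPM with vehicle and 119 to 219 CPM on the normal diet. In 3 of the 4 groups on a diet model the library highest for Mmp12 was also highest for this sum, namely MCD DTMB replicate 1, MCD vehicle replicate 2 and HFD vehicle replicate 4. In the HFD DTMB group Mmp12 was highest in replicate 1, at 2.09 CPM, and the sum in replicate 3, at 114 CPM. One of the 11 markers, Spp1, is also made by bile duct cells. Of 13 stellate cell and myofibroblast markers, none at 0, 1 rose with the high-fat diet, 2 fell with DTMB there and 5 rose with MCD, and none moved the other way. This list shares Col1a1 and Dcn with the matrix substrates. The stellate sum was 371 to 413 CPM with DTMB, 380 to 460 CPM with vehicle and 387 to 422 CPM on the normal diet of the HFD cohort, and 492 to 506 CPM, 519 to 775 CPM and 257 to 502 CPM for MCD DTMB, MCD vehicle and their normal diet. Of 7 Kupffer cell markers, none at 0, 2 rose with the high-fat diet and none was called in the other 3 diet and DTMB comparisons. Their sum was 111 to 172 CPM in HFD DTMB livers, 101 to 253 CPM in HFD vehicle livers and 71.1 to 117 CPM in their normal-diet livers, and 205 to 269 CPM, 100 to 352 CPM and 79.5 to 347 CPM in MCD DTMB, MCD vehicle and normal-diet livers of the MCD cohort. Of 8 hepatocyte markers, 2 rose and 2 fell with the high-fat diet, 5 rose and none fell with DTMB in that cohort, and 5 fell and none rose with MCD. Under library-size scaling 2 rose and none fell with DTMB, and 2 rose and 3 fell with MCD, and without the acinar libraries none was called for DTMB. The hepatocyte sum was 99100 to 107000 CPM in HFD DTMB livers, 83200 to 97500 CPM in HFD vehicle livers and 83600 to 114000 CPM in their normal-diet livers, so that the DTMB libraries lay wholly above those with vehicle. In the MCD cohort it was 86100 to 100000 CPM with DTMB, 74300 to 107000 CPM with vehicle and 87000 to 117000 CPM on the normal diet. Of 8 endothelial markers, 1 fell with the high-fat diet, 1 fell with DTMB there and 2 rose with MCD, and none moved the other way. Without the acinar libraries the DTMB medians in the HFD cohort were nearer to no change. They were -0.09 against -0.18 for the stellate, -0.05 against -0.42 for the Kupffer and -0.12 against -0.37 for the endothelial markers. The diet medians were 0.10 against 0.12, 0.90 against 0.92 and -0.14 against -0.13 for the same lists. Of 7 cholangiocyte markers, none at 0, 1 rose and 2 fell with the high-fat diet, 1 rose and 1 fell with MCD, and none was called for DTMB in either cohort (medians of -0.27 in HFD and -0.94 in MCD livers). The cholangiocyte sum was 44.4 to 68.3 CPM with DTMB, 56.9 to 81.3 CPM with vehicle and 43.3 to 62.8 CPM on the normal diet of the HFD cohort, and 44.5 to 60.2 CPM, 58.8 to 165 CPM and 53.9 to 68.7 CPM for MCD DTMB, MCD vehicle and their normal diet. Of 8 neutrophil markers 4 were tested in the HFD cohort and none was called there, while of 5 tested in the MCD cohort 4 rose with the diet (median 2.29) and none was called for DTMB. Their levels were low on the normal diet, and through which groups they passed the count filter was not examined. The neutrophil sum was 3.00 to 6.08 CPM in MCD DTMB livers, 2.18 to 6.33 CPM in MCD vehicle livers and 0.453 to 2.41 CPM in their normal-diet livers, with Camp at 0 in every group of the diet and DTMB comparisons. Ngp was also at 0 in the MCD vehicle and normal-diet livers of the MCD cohort. Ly6g was at 0 in the DTMB and normal-diet livers of each cohort.

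**Figure D4:**
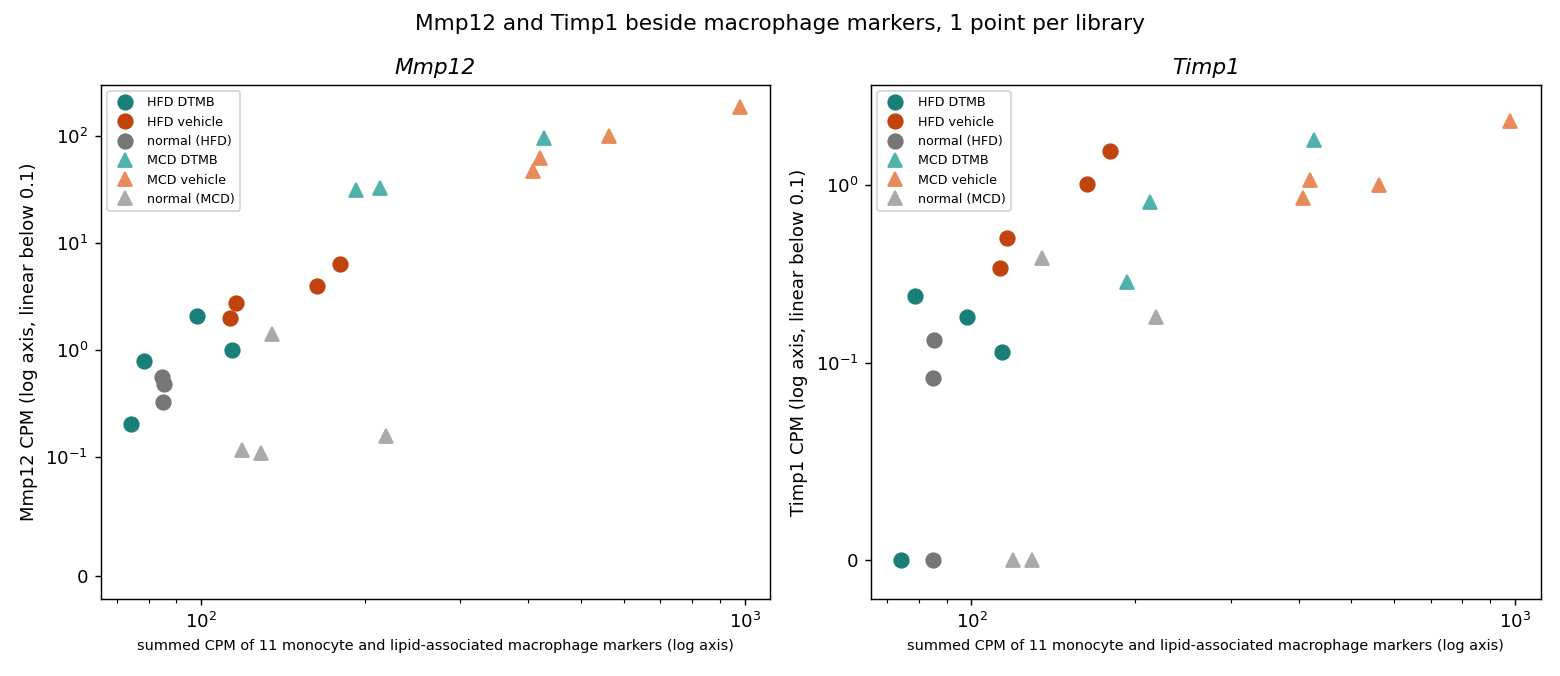
CPM of Mmp12 (left) and Timp1 (right) against the summed CPM of 11 monocyte and lipid-associated macrophage markers, both axes logarithmic (vertical axis linear below 0.1), 1 point per library. MCD vehicle replicate 2 is the highest point for both, at 187 CPM of Mmp12 and 2.28 CPM of Timp1 beside a marker sum of 980 CPM.

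The genes whose pattern was most like these were taken from 15263 genes tested in both cohorts, by the smaller of the 2 within-cohort Pearson correlations of log2 CPM over 11 libraries. The libraries of a cohort fall into 3 groups and share their scaling, so the values are descriptions. For Mmp12 they were Slc7a11, the cystine transporter (0.969 in the HFD and 0.983 in the MCD cohort), Ubd, a ubiquitin-like protein (0.937 and 0.938), and Plvap, an endothelial diaphragm protein (0.948 and 0.932). For Timp1 they were the chemokine gene Ccl4 (0.956 and 0.922), Mmp12 (0.940 and 0.908) and the kinase gene Pak1 (0.903 and 0.913). For Mmp2 they were Mfge8 (0.913 and 0.941), Pam (0.911 and 0.935) and Tgfbi, a TGF-beta-induced matrix protein (0.946 and 0.891). For Lox the closest were lower, with Parvb (0.876 and 0.844), Fstl1 (0.843 and 0.841) and Zeb2 (0.886 and 0.836).

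Within the 10 genes, Timp2 and Timp3 correlated with r = 0.661 in the HFD and 0.912 in the MCD cohort, and Mmp2 with Loxl2 with 0.852 in each. Mmp14 went with Mmp12 in the MCD cohort (0.874) and against it in the HFD cohort (-0.503). These values too span the same 3 groups of 11 libraries in each cohort.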

How the data were processed

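The authors deposited whole-number read counts per gene with no normalization, in 1 table per cohort, per the file headers. The submitters' processing notes name the mm10 build, StringTie 2.1.3b, HISAT2 2.1.0, Trimmomatic 0.38 and FastQC 0.11.7, without roles or settings. RNA was isolated from liver and made into stranded polyA libraries, per the labels' protocols. The quasi-likelihood test of edgeR 4.0.16 (R 4.3.3, with filterByExpr, TMM factors, glmQLFit and glmQLFTest) was run on these counts, each cohort alone with its 3 groups, and all 22 libraries together for differences between cohorts, with Benjamini-Hochberg adjustment over all genes tested and a threshold of 0.05. DESeq2 1.42.0 was an alternative, beside other scalings, filters, a replicate block and left-out libraries. The fit was tested on simulated data with 200 changed genes. For DTMB in the HFD cohort it recovered 64% of 2-fold and 40.4% of 1.5-fold changes, with 5.45% false among those called. For DTMB in the MCD cohort these were 30.6%, 4.08% and 10.5%, and for the DTMB difference between cohorts 28.6%, 4.12% and 3.03%. Many changes of this size would thus be missed in the last 2. Replicates are numbered as biological in the labels, and no pair of libraries agreed within sampling noise (chi-square per degree of freedom of 24.9 or more). Same-numbered libraries were not treated as pairs in the main fit, because the labels do not name them as pairs. The members and lists were chosen with earlier results of these data known. Named genes are all 10 members, then in each comparison the 2 other genes of smallest p in each of 7 lists, of which a selection is described, and the 3 genes most like Timp1, Mmp12, Mmp2 and Lox. The remaining metalloproteinases and collagen modifiers were named after their values were seen. Promoter sequences and gene positions are from RefSeq (GRCm38.p6). Protein sequences were not used here.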

Additional observations from a re-analysis of the deposited data

Results flagged for a closer look

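Among 40 groups of the 10 genes with 4 libraries, 4 held a library that stood apart by Dixon's 95% criterion, which chance alone meets in about 1 group in 20. MCD vehicle replicate 2 was high for Timp1, at 2.28 CPM, and for Loxl2, at 13.8 CPM. MCD-cohort normal-diet replicate 2 was low for Timp2, at 6.38 CPM, and normal-diet replicate 1 of the same cohort was high for Mmp12, at 1.42 CPM. The diet responses of the 2 cohorts differed in the fit of all 22 libraries, with the MCD response above the HFD response by 1.37 on the log2 scale for Timp3, 4.66 for Mmp12 and 1.22 for Mmp14 (edgeR, adjusted p = 0.00309, 0.00287 and 0.00114).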

How the results depend on the processing

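Of 26 called values of single genes, under 498 alternatives in all, 413 kept direction and call, 85 lost the call and none changed sign. The number of genes called for the high-fat diet was 3 of 10 with a replicate block and 0 without the acinar libraries, and 4 to 6 leaving out 1 library. For DTMB in the HFD cohort DESeq2 called 8 and library size alone 8, and it was 2 with no count filter, 0 with the replicate block, 0 without the acinar libraries, and 0 to 9 leaving out 1 library. For HFD DTMB against the normal diet it was 2 by DESeq2, 0 without the acinar libraries and 0 to 3 leaving out 1, and for MCD DTMB against the normal diet 2 to 4. The MCD diet count was 7 to 9 throughout. The cause of these changes was not tested. Correlations of same-numbered deviations ran from -0.444 to 0.339 in the HFD cohort and from -0.269 to 0.0826 in the MCD cohort. Differently numbered libraries were not set beside them, so these values do not settle whether replicate numbers mark pairs. The block moved the calls over all genes to 1225, against 1978, for DTMB in the HFD cohort. For the same comparison they were 2903 with DESeq2, 2799 with library size alone, 1343 with no count filter and 483 to 2562 leaving out 1 library.

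In 56 alternatives an uncalled estimate changed sign. Without the acinar libraries these were Mmp14 for HFD DTMB (0.11), Lox (0.18), Loxl1 (-0.14) and Loxl2 (-0.22) for HFD DTMB against the normal diet, and the diet difference between cohorts of Timp1 (1.15) and Mmp13 (-3.39). With the block they were Loxl2 for HFD DTMB against the normal diet (-0.04), Timp2 for MCD DTMB against the normal diet (-0.02) and the Timp1 diet difference (0.88). With library size alone they were Loxl2 for HFD DTMB (-0.01) and Loxl1 for MCD DTMB (0.06) against the normal diet, and the Mmp2 DTMB difference (0.05). With only the groups compared it was Loxl2 for HFD DTMB against the normal diet (-0.01). Leaving out 1 library, Timp2 for the high-fat diet ran from -0.06 to 0.28 and Mmp14 for HFD DTMB from -0.13 to 0.09. For HFD DTMB against the normal diet Mmp2 ran from -0.14 to 0.07, Loxl1 from -0.12 to 0.22 and Loxl2 from -0.09 to 0.08. Mmp13 for MCD DTMB ran from -1.18 to 0.25. For MCD DTMB against the normal diet Timp2 ran from -0.17 to 0.08, Lox from -0.42 to 0.83, Loxl1 from -0.54 to 0.02 and Loxl2 from -0.06 to 0.59. Diet differences ran from -1.08 to 0.96 for Timp1, -0.99 to 1.05 for Mmp13, -0.13 to 0.88 for Lox and -0.13 to 0.72 for Loxl2, and DTMB differences from -0.18 to 0.24 for Mmp2, -0.31 to 1.26 for Lox and -0.47 to 0.40 for Loxl2.

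Depth limits Timp1, Mmp13 and Lox, which had 0 to 30 counts in many libraries outside the diet vehicle groups, so that single libraries move their estimates.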
